A study of Mus musculus with 6 samples.

Results

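Regulatory T cells restrain immune responses in part through the proteins and peptides that they release. The transcripts of 7 such suppressive cytokines and mediators, Il10, Ebi3, Il12a, Tgfb3, Fgl2, Areg and Penk, are described here in induced regulatory T (iTreg) cells with and without the microRNA miR-31. Every non-control probe of the array that carried one of these 7 gene names was taken, whatever its signal, which gave 9 probes among 41174 and 7 gene names among 27376. Fgl2 and Penk had 2 probes each and the other 5 genes had 1.

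Naive CD4+CD25-Foxp3gfp-CD62Lhi T cells had been sorted from the spleens of 6-week-old C57BL/6 mice and cultured for 4 days. All 6 cultures had received IL-2 at 40 ng/ml and TGF-β1 at 5 ng/ml, with anti-CD3 on the plate at 5 ug/ml and anti-CD28 in solution at 2 ug/ml. The methods of the study name a lower IL-2 concentration and another RNA kit than the sample labels do. The 3 cKO mice were miR-31 fl/fl CD4Cre, so that miR-31 was deleted in all cells with a history of CD4 promoter activity, and the 3 controls were age-matched miR-31 fl/fl mice. The controls carried no Cre, so loss of miR-31 and presence of Cre cannot be told apart. Each mouse gave 1 culture and 1 one-colour array. Control array 1 shared a slide with all 3 cKO arrays, whereas the slide of control arrays 2 and 3 held no cKO array. A slide effect was therefore partly confounded with the genotype, and the difference between the cKO arrays and control array 1 is given beside each of the 7 genes, and beside related genes whose genotypes did not overlap, as the only comparison within a slide.

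IL-10 signals through a receptor of 2 chains, IL-10RA and IL-10RB, and dampens antigen-presenting cells and T cells by way of STAT3. EBI3 and the p35 chain encoded by Il12a together form IL-35, but each also has other partners: EBI3 pairs with IL-27 p28 to form IL-27, and p35 pairs with p40 to form IL-12. TGF-β3 is released in a latent form that has to be activated outside the cell. FGL2 is a fibrinogen-like protein that acts on antigen-presenting cells through an inhibitory Fc receptor, amphiregulin (Areg) is an EGF receptor ligand known from tissue repair by regulatory T cells, and Penk encodes the precursor of the enkephalins, short opioid peptides.

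The microRNA that was deleted is shown first, with its seed (bases 2 to 8) in capitals, because the genotypes differ in it. Its mature form lies on chromosome 4 at chr4:88910614-88910635 (minus strand, GRCm38.p6, sequence from RefSeq). 0 of the 9 probes contained the letters TCTTGCC, the DNA complement of this seed, which says only that the match is not in these 60-base windows. The array carried no probe with the name of miR-31, and its loss was therefore not checked here.
mmu-miR-31-5p: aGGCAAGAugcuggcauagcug

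3 probe sequences are shown because they tell which part of a transcript, or which end of the signal range, a value rests on. The probe named Penk probe 2 below (mm9 chr4:4061458-4061517) reads through the codons of 2 successive Met-enkephalin copies, which are in capitals. The Il12a probe (mm9 chr3:68498108-68498167) and the Areg probe (mm9 chr5:91570090-91570149) were near the background and each had 1 reading frame of 3 free of stop codons.
Penk probe 2: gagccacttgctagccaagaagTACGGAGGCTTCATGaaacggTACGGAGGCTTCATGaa
Il12a: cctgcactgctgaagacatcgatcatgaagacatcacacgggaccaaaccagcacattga
Areg: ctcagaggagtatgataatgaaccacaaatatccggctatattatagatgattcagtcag

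Promoter sequences were matched for 4 of the 7 genes (RefSeq, GRCm38.p6). The 150 bases before the annotated start are shown for Fgl2, Areg and Ebi3, whose arrays did not overlap between genotypes. 4 motifs were searched on both strands in the 250 bases before the start, and matches are in capitals. The AP-1 element was searched as TGANTCA, and the GAS element, which STAT dimers bind, as TTCNNNGAA. The cAMP response element was searched as TGACGTCA, and the element that places the start of many promoters, the TATA box, as TATAAA. The Fgl2 promoter (chr5:21372523-21372672, plus strand) held TTCTGGGAA 36 to 28 bases and TGAGTCA 16 to 10 bases before the start. The Areg promoter (chr5:91139449-91139598, plus strand) held TGACGTCA 61 to 54 bases and TATAAA 31 to 26 bases before it, and the Ebi3 promoter (chr17:55952473-55952622, plus strand) held none of the 4. Over all 32851 windows of the same 250-base length, 6.75% held the AP-1 letters, 7.02% the GAS letters, 1.55% the cAMP response element and 12.4% the TATA letters. The matches describe the letters and do not show binding.
Fgl2: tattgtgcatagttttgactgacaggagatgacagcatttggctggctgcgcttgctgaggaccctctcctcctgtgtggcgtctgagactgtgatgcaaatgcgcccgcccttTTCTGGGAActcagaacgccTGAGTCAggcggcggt
Areg: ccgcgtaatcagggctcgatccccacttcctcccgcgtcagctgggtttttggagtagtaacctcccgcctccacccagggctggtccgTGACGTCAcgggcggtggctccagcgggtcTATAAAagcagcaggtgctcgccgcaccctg
Ebi3: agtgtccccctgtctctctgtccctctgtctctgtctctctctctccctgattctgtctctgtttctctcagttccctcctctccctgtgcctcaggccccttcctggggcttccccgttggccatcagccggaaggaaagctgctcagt

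Values below are the log2 processed signal of a probe minus the 75th percentile of all non-control probes on the same array, so that 0 is the signal of that percentile. The 75th percentile lay between 991 and 1153 intensity units on the 6 arrays, 49.3% to 57.7% of probes per array were well above background, and 0 spots were saturated. Pearson correlations across probes were 0.974 to 0.985 among the cKO arrays, 0.984 to 0.989 among the controls and 0.948 to 0.984 between genotypes. T cell markers were well above background on all 6 arrays for 8 of 8 genes and regulatory T cell markers for 10 of 10, and 0 of the 10 passed the adjusted threshold between genotypes. The regulatory T cell markers went both ways, with 6 higher and 4 lower in the cKO mean. Foxp3 was lower on all cKO arrays, at 2.91 ± 0.40 against 3.52 ± 0.20 (SD, n = 3), as was Gpr83 at 2.23 ± 0.71 against 4.24 ± 0.21. Ctla4 was higher on all cKO arrays, at 0.89 ± 0.30 against -0.05 ± 0.38, as was Tnfrsf4 at 7.22 ± 0.38 against 6.71 ± 0.15. That makes 2 of 10 lower and 2 of 10 higher without overlap, near the 20.4% and 16% of all tested probes. The limma adjusted p of Foxp3, Gpr83, Ctla4 and Tnfrsf4 were 0.19, 0.090, 0.13 and 0.22. Against control array 1 their differences were -0.50, -1.79, 0.66 and 0.36. For markers of other cells, the summed linear level over the whole list, relative to the 75th percentile, ranged from 0.582 to 0.725 in cKO and 0.688 to 1.05 in control cultures for 9 myeloid genes, with Adgre1 and Itgax never above background. It was 0.566 to 1.28 and 0.399 to 0.639 for 7 B cell genes, of which Pax5, Cd22 and Blk were never above background, and 3.87 to 4.33 and 4.40 to 5.58 for the 2 CD8 genes. Both CD8 genes were well above background on all 6 arrays. Cd8a read -0.27 ± 0.76 in cKO and 0.59 ± 0.40 in control cultures, and Cd8b1 1.65 ± 0.27 and 1.82 ± 0.18 (SD, n = 3). For 4 NK genes the summed level was 56.9 to 59.7 and 25.5 to 45.6, almost all from Nkg7 and Klrd1, which activated T cells also express. Of the other NK markers, Klrb1c was never above background, and Ncr1 was above it on 2 cKO and 0 control arrays, at -4.41 to -4.23 in cKO and -6.59 to -5.85 in control cultures. For 4 erythroid genes it was 0.518 to 1.10 and 0.211 to 0.406, and for 5 epithelial genes 1.34 to 1.96 and 0.810 to 0.913. The part of these cells in the results was not tested, and since each array holds the RNA of a whole culture, more cells that make a transcript and more transcript per cell cannot be told apart in any value below.

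All 7 genes had a brightest probe among the 22265 tested with limma, a test limited to probes whose signal cleared the background well on 3 or more arrays. Areg passed this filter only through its control arrays, so that a difference was partly fixed by the filter. 0 of the 7 had a Benjamini-Hochberg adjusted p under 0.05, against 0.247% of all tested probes. Of the other 6 genes, 3 (Ebi3, Tgfb3 and Fgl2) had an unadjusted p under 0.05, against 22.8% of all tested probes. Areg had one too, but since it was tested only because its control arrays were high, it is not read against that share. The cKO values were all higher than the control values for 3 of the 7 (the same Ebi3, Tgfb3 and Fgl2), against 16% of tested probes. They were all lower for Areg, whose direction turned with another combination of background correction and scaling. In all, 20.4% of tested probes were lower without overlap, but for the same reason Areg is not read against that share. The cKO mean was the higher one for 6 of the 7 genes, and the median log2 difference of all 7 was 0.97 beside -0.04 over all tested probes. This median is the value of Il10, whose genotypes overlapped and whose difference against control array 1 was -0.29. The share of all tested probes with a higher cKO mean was not counted. With 3 arrays against 3, an exact permutation test of a single gene cannot give a 2-sided p below 0.1.

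**Figure D1:**
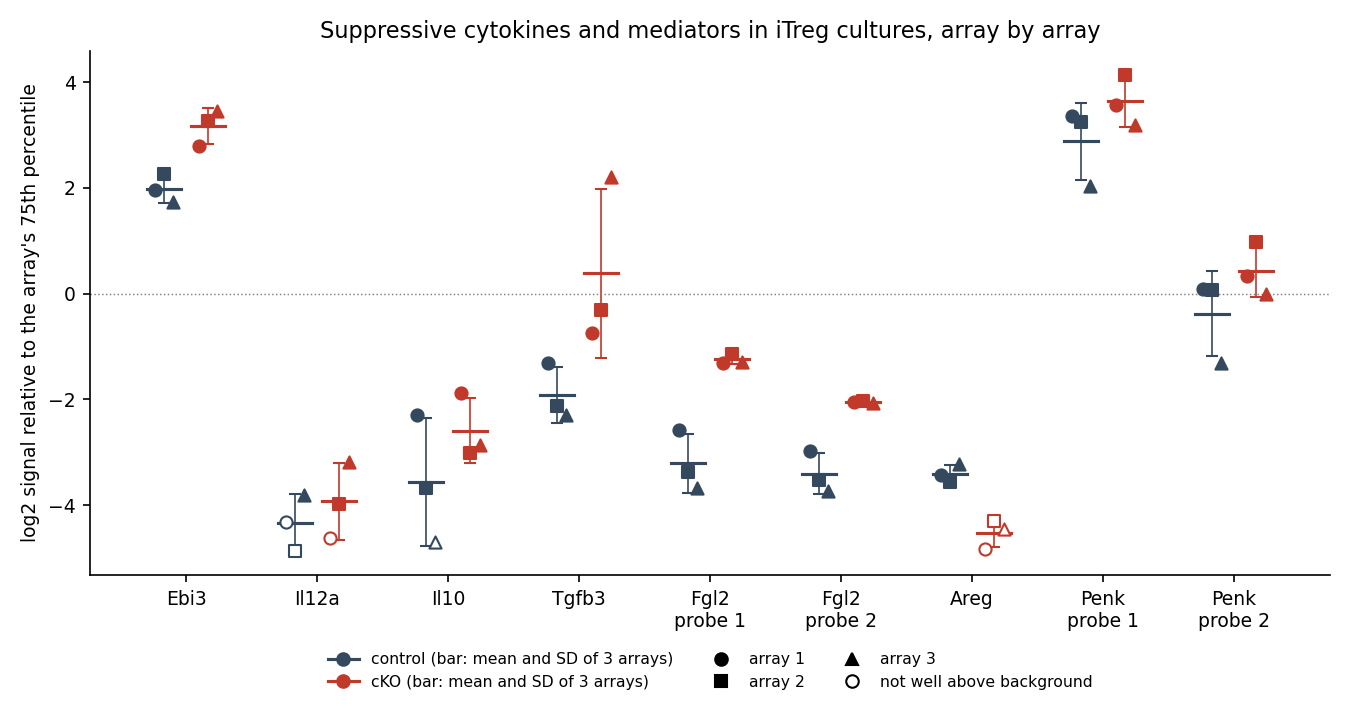
Log2 signal minus that of the 75th percentile of the array (vertical axis) for the 9 probes of the 7 genes, with control arrays in dark blue and cKO arrays in red, bars for the mean and SD of 3 arrays, and open symbols where a probe was not well above background. The cKO and control symbols do not overlap for Ebi3, Tgfb3, both Fgl2 probes and Areg (the last with a direction that turned under normexp with 75th-percentile scaling), and they do for Il12a, Il10 and both Penk probes.

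Of the IL-35 chains, Ebi3 was the one well above background everywhere, and Il12a was near the background. The Ebi3 probe (NM_015766, mm9 chr17:56096309-56096368) read 2.79, 3.27 and 3.46 on cKO arrays 1 to 3 and 1.96, 2.26 and 1.73 on control arrays 1 to 3. All 3 cKO arrays were above all 3 controls, and the lowest cKO array exceeded the highest control by 0.53. In intensity units the signals were 7303 to 10879 in cKO and 3565 to 5244 in control cultures. The log2 difference was 1.19 ± 0.22 (SE), 2.28-fold, with a limma adjusted p of 0.094 and an exact permutation p of 0.1. Within the shared slide, the cKO mean exceeded control array 1 by 1.21, which was close to the value over all arrays.

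Il12a encodes p35, the chain shared by IL-12 and IL-35. Its probe (NM_008351, mm9 chr3:68498108-68498167) read -4.63, -3.98 and -3.18 in cKO and -4.31, -4.87 and -3.80 in control cultures. Its signal cleared the background well in 2 cKO cultures and 1 control culture. The genotypes overlapped, and the difference of 0.40 ± 0.43 (SE) was smaller than its error, with a limma adjusted p of 0.58. It was 0.38 against control array 1, and 0.02 without cKO array 3.

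The other partner chains were dim. The p28 chain Il27, which completes IL-27 with EBI3, was above background on all 6 arrays at -2.75 ± 0.04 in cKO and -2.62 ± 0.31 in control cultures (SD, n = 3). Its difference was -0.13 ± 0.17 (SE), with a limma adjusted p of 0.64. The p40 chain Il12b was above background on 0 arrays and the p19 chain Il23a on 1 cKO array, so neither was tested.

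Among the receptors of this family, the signalling chain of the IL-12 receptor, Il12rb2, read -1.42, -1.31 and -0.55 in cKO and -1.91, -2.18 and -3.10 in control cultures. All cKO arrays lay above all controls. Its difference was 1.30 ± 0.37 (SE) with a limma adjusted p of 0.15, and 0.82 against control array 1. Il12rb1, the chain shared by the IL-12 and IL-23 receptors, differed by 0.39 ± 0.16 (SE) and the kinase Jak2 by 0.61 ± 0.23 (SE), with limma adjusted p of 0.21 and 0.20 and no overlap between genotypes, and their differences against control array 1 were 0.20 and 0.57. Il6st (gp130), a signalling chain for IL-27 and IL-35, differed by 0.11 ± 0.17 (SE) and Il27ra by -0.07 ± 0.27 (SE), both smaller than their errors. Of the 11 genes listed for the family, 8 were tested. 0 of these 8 passed the adjusted threshold, 3 had an unadjusted p under 0.05 with higher cKO values and 0 with lower ones, against 22.8% of all tested probes, and their median difference was 0.25 beside -0.04 over all tested probes.

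Il10 varied widely between mice of the same genotype, and its genotypes overlapped. Its probe (NM_010548, mm9 chr1:132920943-132921002) was printed 10 times on each array, which shows the error between spots of an array. It gave -1.89, -3.01 and -2.87 in cKO and -2.30, -3.68 and -4.70 in control cultures. Control array 1 was above cKO arrays 2 and 3, while control array 3 was the lowest of all and was the only array on which Il10 was not well above background.

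The repeat spots of Il10 had SDs of 0.07 to 0.20 on the log2 scale within an array. Between mice, the SD was 0.61 in cKO and 1.21 in control cultures (n = 3). Repeat spots share 1 labelling, hybridization and slide, so their SD leaves out these sources of error, and the part of each in the spread between arrays was not tested. In all, 97.5% of tested probes had a smaller pooled SD within genotypes than the 0.96 of Il10, beside a median of 0.20. The log2 difference was 0.97 ± 0.63 (SE), with a limma adjusted p of 0.37 and an exact permutation p of 0.3. Against control array 1, on the same slide, the difference was -0.29. It was 1.60 without control array 1 and 0.40 without control array 3.

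**Figure D2:**
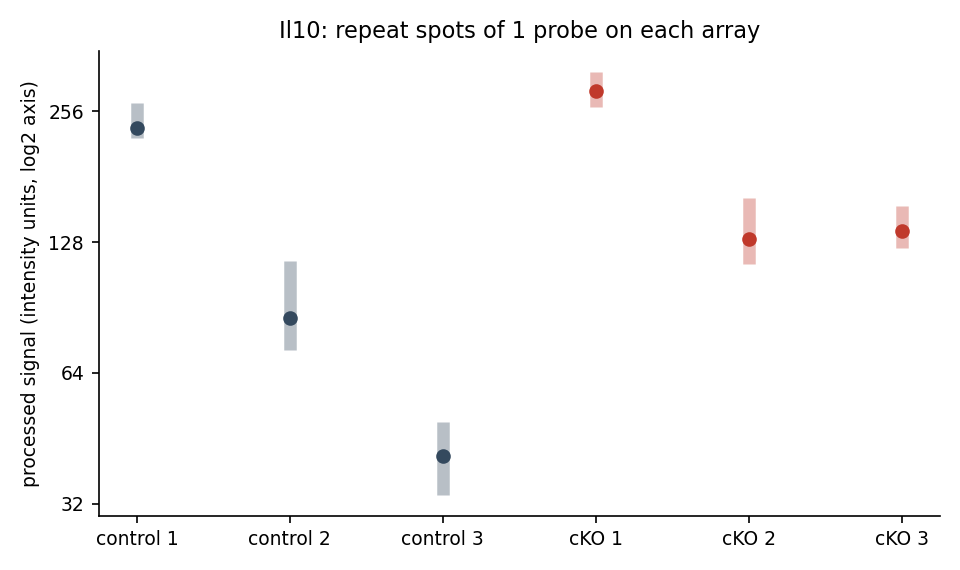
Processed signal of the Il10 probe in intensity units on a log2 axis for each array, with the point at the array's value and the band from its lowest to its highest repeat spot (9 or 10 spots after outlier removal). The bands show spot-to-spot error only and are shorter than the distances between most arrays: control array 1 reached 267 while control array 3 reached 49.4.

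The receptor chains of IL-10 gave smaller mean differences than Il10 itself. Il10ra was 3.58 ± 0.37 in cKO and 3.17 ± 0.49 in control cultures (SD, n = 3), with overlapping arrays and a limma adjusted p of 0.41. Il10rb differed by -0.05 ± 0.14 (SE), with a limma adjusted p of 0.82. Downstream of the receptor, Socs3, a STAT3-induced inhibitor of cytokine signalling, read 4.23, 4.08 and 4.44 in cKO and 3.70, 3.25 and 2.67 in control cultures. Its arrays did not overlap, and the difference was 1.04 ± 0.27 (SE) with a limma adjusted p of 0.14, or 0.55 against control array 1. Stat3 itself differed by 0.58 ± 0.16 (SE) and Bcl3, a nuclear IκB protein, by 0.54 ± 0.17 (SE), with limma adjusted p of 0.14 and 0.17 and no overlap between genotypes, and 0.53 and 0.28 against control array 1. 0 of the 8 genes of this list passed the adjusted threshold, 3 had an unadjusted p under 0.05 with higher values and 0 with lower ones, against 22.8% of all tested probes, and the median difference was 0.32.

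Of 12 factors known to act on Il10 in T cells, 5 had an unadjusted p under 0.05 with higher cKO values and 1 with a lower value (22.8% of all tested probes in either direction), 0 passed the adjusted threshold, and the median difference was 0.46. Prdm1, which encodes Blimp-1 and is needed for Il10 in many T cells, read -1.05, -1.56 and -0.61 in cKO and -2.21, -2.62 and -3.59 in control cultures. Every cKO array was above every control, by 1.73 ± 0.40 (SE) in the mean with a limma adjusted p of 0.12, and by 1.14 against control array 1. Bhlhe40, a repressor of Il10, differed by 0.74 ± 0.23 (SE) with a limma adjusted p of 0.17, and by 0.59 against control array 1, so an activator and a repressor both had the higher values in cKO cultures. Egr2, another factor linked to Il10, was the lower one at 2.59 ± 0.45 against 3.28 ± 0.15 (SD, n = 3), with a limma adjusted p of 0.18 and a difference of -0.84 against control array 1. Maf, which binds the Il10 gene, differed by 0.31 ± 0.30 (SE), with a limma adjusted p of 0.53.

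Tgfb3 was higher in all cKO cultures than in any control, and 1 culture carried much of the difference. Its probe (NM_009368, mm9 chr12:87397804-87397863) read -0.74, -0.32 and 2.21 in cKO and -1.31, -2.13 and -2.30 in control cultures. The third cKO culture stood 2.52 above the next cKO culture, a signal of 4575 against 842 intensity units, and the lowest cKO array was still 0.57 above the highest control. The difference was 2.30 ± 0.78 (SE), 4.91-fold, with a limma adjusted p of 0.18 and an exact permutation p of 0.1. Without cKO array 3 it was 1.38, below the 1.99 of Fgl2 without that array, and against control array 1 it was 1.70. Only 0.431% of tested probes had a larger absolute difference, yet 98.7% had a smaller pooled SD than the 1.19 of Tgfb3.

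The other TGF-β ligands gave small or unmeasured differences. Tgfb1, the isoform that T cells mainly make, was 3.23 ± 0.25 in cKO and 3.13 ± 0.19 in control cultures (SD, n = 3), a difference of 0.10 ± 0.17 (SE) with a limma adjusted p of 0.74. Tgfb2 was above background on 0 arrays. Among proteins that hold or activate latent TGF-β, Lrrc33 (current symbol Nrros), which anchors the latent form on the cell surface, read 2.88, 2.92 and 2.91 in cKO and 3.78, 3.86 and 3.94 in control cultures. It fell by 0.95 on the log2 scale (SE 0.10, limma adjusted p of 0.047), lower in 3 of 3 cKO cultures than in any control. Lrrc33 was the only gene of the 7 related lists with an adjusted p under 0.05, a call made for 0.247% of all tested probes. This call passed under 8 of 19 alternative settings, with adjusted p from 0.019 to 0.46, and was lost when any 1 array was left out, with the slide as a block (adjusted p of 0.32 in limma) and with the replicate block (0.22). The difference stayed between -1.13 and -0.87 in all 19, and it was -0.87 against control array 1, the same comparison as the slide block.

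Ltbp3, a latent TGF-β binding protein, was -0.62 ± 1.44 in cKO and -4.18 ± 0.78 in control cultures (SD, n = 3), with control array 3 not well above background. All cKO arrays were above all controls, and the third cKO culture was again the highest. The difference was 3.56 ± 0.76 (SE) with a limma adjusted p of 0.11, and 2.85 against control array 1. Itgb8, a chain of a TGF-β-activating integrin, differed by 0.67 ± 0.27 (SE) with overlapping arrays and a limma adjusted p of 0.21. No probe was named Lrrc32, the gene of GARP, on this array. Of the 13 genes of the list, 9 were tested and 1 (Lrrc33) passed the adjusted threshold, against 0.247% of all tested probes. 3 had an unadjusted p under 0.05 with higher values and 1 with lower values, against 22.8% of all tested probes, and the median difference was 0.29.

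Fgl2 was higher in all cKO cultures than in any control culture at both of its probes. Probe 1 (NM_008013, mm9 chr5:20882580-20882639) read -1.30, -1.13 and -1.29 in cKO and -2.58, -3.36 and -3.68 in control cultures. The 3 cKO arrays lay within 0.17 of each other and 1.28 or more above every control. The difference was 1.97 ± 0.28 (SE), 3.91-fold, with a limma adjusted p of 0.066 and an exact permutation p of 0.1.

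Probe 2 of Fgl2 (mm9 chr5:20883482-20883541) starts 902 bases from probe 1 and read -2.04, -2.03 and -2.07 in cKO and -2.97, -3.52 and -3.73 in control cultures. It ordered the control arrays as probe 1 did, and the Pearson correlation between the probes was 0.999 over the 6 arrays, which share the same RNA. Its difference was 1.36 ± 0.20 (SE), 2.56-fold, with a limma adjusted p of 0.068. Against control array 1, the highest of the controls at both probes, the differences were 1.34 and 0.92, smaller than over all arrays. With 4 of 19 alternative settings the adjusted p of probe 1 was under 0.05, and over all 19 it ranged from 0.043 to 0.43 and the difference from 1.22 to 2.28.

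The proteins related to FGL2 gave few measured values. Fcgr2b, the inhibitory Fc receptor that binds FGL2, was detected above background in 0 cKO cultures and 1 control culture and was not tested. Fgl1, another fibrinogen-like protein and a ligand of LAG-3, was -0.76 ± 0.10 in cKO and -0.48 ± 0.12 in control cultures (SD, n = 3), with a limma adjusted p of 0.22 and a difference of -0.14 against control array 1. Its receptor Lag3 read 1.22, 1.69 and 2.50 in cKO and 0.84, -0.02 and -1.39 in control cultures. The Lag3 arrays did not overlap, and the difference was 1.99 ± 0.61 (SE) with a limma adjusted p of 0.16, or 0.96 against control array 1. 3 of the 6 genes of this list were tested and 0 passed the adjusted threshold, while Lag3 with higher and Fgl1 with lower cKO values had an unadjusted p under 0.05, against 22.8% of all tested probes.

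Areg was the one gene of the 7 with lower cKO values, and it lay at the background in all cKO cultures. Its direction turned under 1 of 18 alternatives, normexp background correction with 75th-percentile scaling. Its probe (NM_009704, mm9 chr5:91570090-91570149, sequence above) read -4.83, -4.29 and -4.44 in cKO and -3.43, -3.57 and -3.23 in control cultures. All cKO arrays were below all controls, the highest of them by 0.73 below the lowest control. The probe cleared the background well in 0 cKO and 3 control cultures, so the cKO level is uncertain. For each cKO array, the higher of its Areg value and its lowest probe value well above background was taken. With the background subtraction of the scanner software, this gave a 2.04-fold lower level in cKO. It is not a strict minimum, since Areg on cKO array 3 exceeded that lowest value, -4.88, without clearing the background well. The 2.04-fold value does not hold with other background corrections, as given next.

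The measured means were -4.52 in cKO and -3.41 in control cultures, and limma gave an adjusted p of 0.070, which rests on cKO values that are not well above background. The difference of these means, -1.11, was -1.09 against control array 1 and depended on the background correction. With normexp in place of the scanner software's subtraction it was -0.35 after quantile normalization and 0.40 after 75th-percentile scaling, where the median of all tested probes was 0.11. The adjusted p over 18 alternatives ranged from 0.045 to 0.72.

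Of the other ligands tested in this family, Hbegf was lower without overlap, while Egf and Epgn overlapped between genotypes. Egf differed by 0.08 ± 0.14 and Epgn by -0.22 ± 0.15 (SE), with limma adjusted p of 0.75 and 0.40. Hbegf, which encodes heparin-binding EGF-like growth factor, read 1.33, 1.52 and 0.16 in cKO and 2.08, 2.17 and 2.55 in control cultures. Every cKO array was below every control, by 1.26 ± 0.37 (SE) in the mean with a limma adjusted p of 0.16, the third cKO culture was the lowest, and the difference against control array 1 was -1.07. The receptor Egfr was above background on 0 arrays. Erbb3 had the higher cKO values at -0.37 ± 0.18 against -1.08 ± 0.19 (SD, n = 3), with a limma adjusted p of 0.11 and a difference of 0.87 against control array 1. Adam17, the protease that sheds amphiregulin, differed by -0.08 ± 0.09 (SE), with a limma adjusted p of 0.59 and -0.04 against control array 1. Of 14 genes in this list 8 were tested, 0 passed the adjusted threshold, 1 had an unadjusted p under 0.05 with higher values (Erbb3) and 1 with lower ones (Hbegf), against 22.8% of all tested probes, and the median difference was -0.05. A further 6 genes, Ereg, Btc, Tgfa, Egfr, Erbb2 and Rhbdf1, were never above background.

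Penk was well above background in every culture of both genotypes, and its genotypes overlapped. Probe 1 (NM_001002927, mm9 chr4:4060735-4060794) read 3.58, 4.14 and 3.19 in cKO and 3.37, 3.24 and 2.04 in control cultures, signals of 4413 to 18543 intensity units. Control arrays 1 and 2 were above cKO array 3, and control array 3 was the lowest. The difference was 0.75 ± 0.42 (SE), with a limma adjusted p of 0.31 and an exact permutation p of 0.3.

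Probe 2 of Penk, which reads the enkephalin codons shown above and starts 723 bases from probe 1, gave 0.33, 0.97 and -0.01 in cKO and 0.09, 0.08 and -1.31 in control cultures. The order of the arrays was the same as with probe 1 (Pearson r of 0.998 over 6 arrays). Its difference was 0.81 ± 0.45 (SE), with a limma adjusted p of 0.31. Against control array 1 the differences were 0.27 at probe 1 and 0.34 at probe 2, and without control array 3 it was 0.33 at probe 1.

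Most opioid genes other than Penk were at or near the background. Of 12 listed, 4 were tested, 1 of them with an unadjusted p under 0.05 (Cpe, lower), against 22.8% of all tested probes, and 0 past the adjusted threshold, with a median difference of -0.26. The opioid receptors Oprm1 and Oprk1 were above background on 0 arrays. Oprd1, the delta receptor at which enkephalins act, was above background on 1 cKO array. Cpe, a carboxypeptidase that trims peptide precursors, read -2.38, -2.05 and -4.02 in cKO and -1.73, -1.24 and -1.14 in control cultures. Its arrays did not overlap, with a difference of -1.44 ± 0.52 (SE) and a limma adjusted p of 0.19, and -1.09 against control array 1, and the third cKO culture was again the farthest from the controls.

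**Figure D3:**
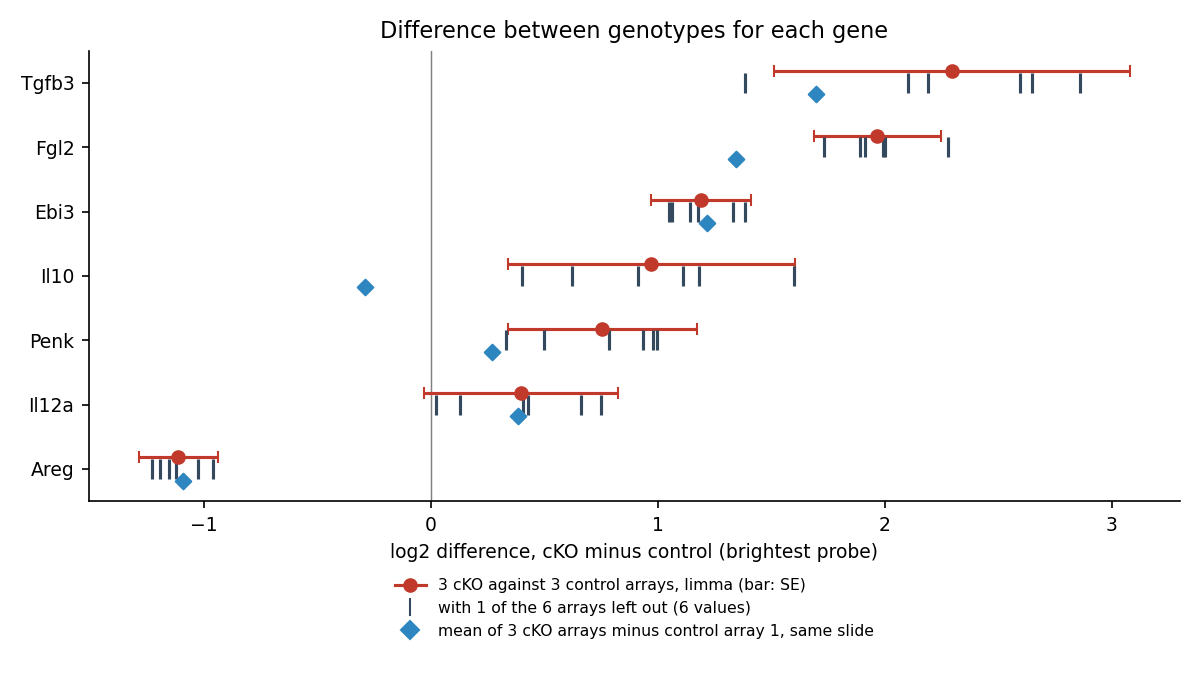
Log2 difference between cKO and control for the brightest probe of each gene (horizontal axis), as fitted over 6 arrays with its SE (red), with each array left out in turn (dark ticks) and for the cKO mean minus control array 1 on the same slide (blue diamonds). Fgl2, Ebi3, Tgfb3, Penk and Il12a stay above 0 in all of these, the same-slide value of Il10 is -0.29, and Areg stays below 0 here but was 0.40 under normexp with 75th-percentile scaling.

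**Figure D4:**
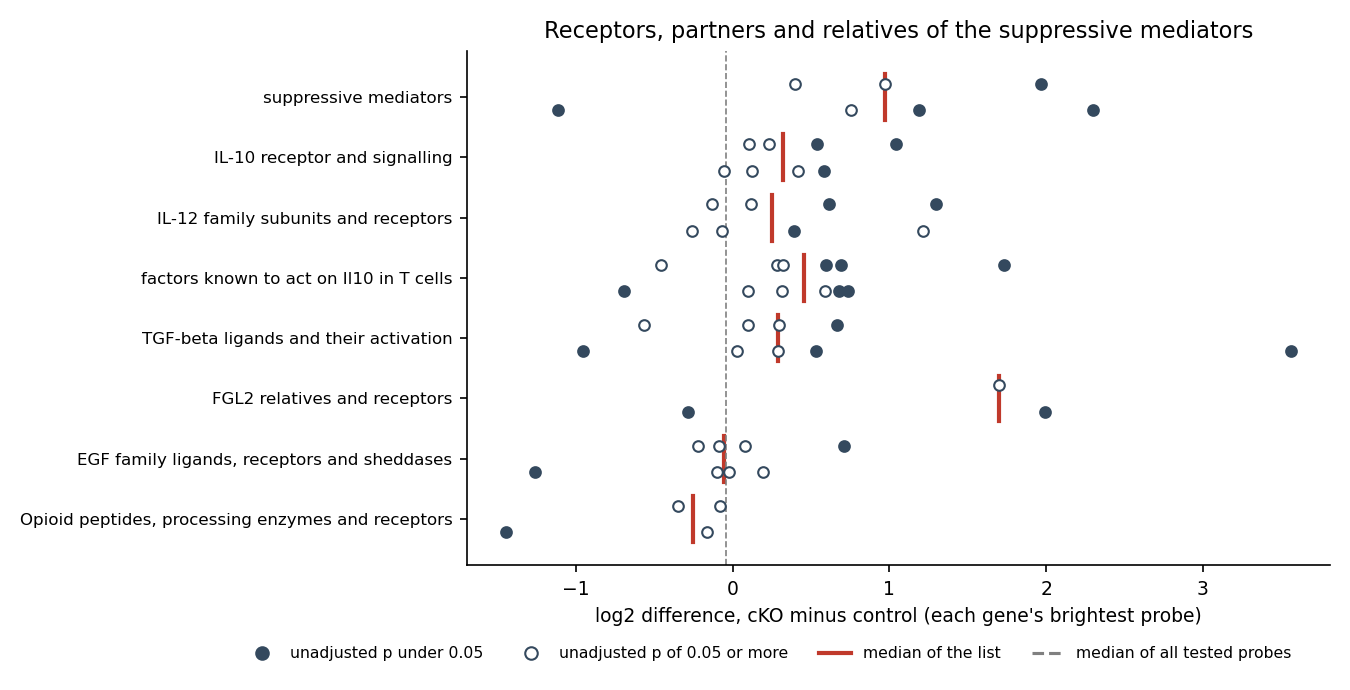
Log2 difference between cKO and control (horizontal axis) for the brightest probe of each tested gene in the 7 mediators and the 7 related lists, filled where the unadjusted limma p is under 0.05, with list medians in red and the median of all tested probes, -0.04, as a dashed line. The highest point is Ltbp3 at 3.56 and the lowest is Cpe at -1.44.

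The 7 genes did not share 1 order of cultures. Among cKO cultures, the third was the highest for Ebi3, Il12a and Tgfb3 and the lowest for Penk, and the first was the highest for Il10. Among controls, the first was the highest for Il10, Tgfb3, Fgl2 and Penk, and the third was the lowest for Il10, Ebi3, Tgfb3, Fgl2 and Penk. Control array 3 had the highest Il12a and Areg values of the controls.

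The genes whose values ran most closely with each mediator over the 6 arrays were looked for among 15419 probes of other RefSeq genes above background on all arrays. The 6 arrays include the genotype difference and many probes were searched, so the correlations are given as a description. Ebi3 ran with the bicarbonate transporter Slc4a7 (Pearson r of 0.998) and the WASP-interacting protein Wipf1 (0.997), and Tgfb3 with Trip6 (0.997) and Xylt2 (0.997). Fgl2 probe 1 ran with the transcription factor Nfil3 (0.994) and with Farp1 (0.993), and probe 2 with Ube2o (0.994) and Farp1 (0.993). Penk probe 1 ran with St13 (0.998) and Pef1 (0.994), and probe 2 with St13 (0.992). The differences of these partners between genotypes were smaller than those of the mediators, for example 0.25 for Slc4a7 and 0.12 for St13.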

How the data were processed

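The array files were read as deposited. The authors labelled 0.5 ug of RNA per sample with Cy3 and hybridized it to 60-mer Agilent mouse arrays of 45018 spots, 43379 of them non-control. The deposited intensity values are linear processed signals of Agilent Feature Extraction (version 9.1 per the labels, 10.7.3.1 per the file headers), with background subtracted and spatial trend removed, and not scaled between arrays. The authors also deposited a table of log2 values, which was used as an alternative, and 0 of its columns were left unmapped. Probe positions are mm9, per the file headers, and no genome of that build was used here, so exons are not given.

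Outlier spots (123 to 140 per array) were dropped, spots of a probe were averaged, and log2 signals were set relative to each array's 75th percentile. A probe was tested if 50% or more of its spots cleared the background well on 3 or more of the 6 arrays. The functions lmFit and eBayes of limma 3.58.1 (R 4.3.3) were applied to these 22265 probes, and p-values were adjusted over all of them by Benjamini-Hochberg with a threshold of 0.05. A gene was given by its probe with the highest mean signal. Tables and plots were made with Python 3.11.15, pandas 2.3.3, numpy 2.4.6 and matplotlib 3.10.9. The fit was tested on simulated data first. The number of arrays, 3 per genotype, limits the precision.

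The members, the related lists and the marker lists were chosen with earlier results of these data known. Named from each related list were the receptor chains and partners fixed with it and at most the 3 largest differences with an unadjusted p under 0.05. Maf, Egf, Epgn, Oprk1, Oprl1, Pomc and the genes never above background were named after their values were seen. Replicate numbers did not pair the samples. Alternatives were normexp background correction (offset 50), other normalizations, the authors' table, other filters on dim probes, the methods' t-test, trend and robust fitting, array weights, slide or replicate number as a block, each array left out, and the mean over a gene's probes. For Lrrc33 they were added after its value was seen. 1 gene among those with the most similar values is not reported here.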

Additional observations from a re-analysis of the deposited data

How the results depend on the processing

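The differences of Ebi3, Fgl2, Tgfb3, Penk and Il12a kept their sign under all alternatives that gave a value, at 0.97 to 1.38, 1.22 to 2.28, 1.38 to 2.86, 0.27 to 1.00 and 0.02 to 0.79. That of Il10 reversed to -0.29 with the slide as a block, and that of Areg to 0.40 with normexp and the 75th percentile. With the slide as a block, the difference is the cKO mean minus control array 1, since the other slide held no cKO array. It is therefore the same comparison as the one within the shared slide. The adjusted p of Fgl2 was under 0.05 with normexp and quantile normalization (difference 1.22), with trend and robust fitting (1.97), with only probes above background on all 6 arrays (1.97) and with weighted arrays (1.99), and that of Areg with array weights (-0.97). The number of the 7 genes under the threshold was therefore 1 under the first 3 of these and 2 with array weights, against 0 otherwise. With array weights the second gene was Areg, which was tested only through its control arrays, so that this call was partly fixed by the filter. The causes were not tested. Il10, Il12a and Areg gave no value where all 6 arrays had to be above background. The number without overlap was 3 to 5 of 7 genes, and 3 of the 4 genes above background on all arrays. In the main fit, 16% of all tested probes were higher without overlap and 20.4% lower. The count of 5 came only with cKO array 3 or control array 1 left out, where fewer arrays have to be kept apart. These counts include Areg, except with normexp and the 75th percentile and where all 6 arrays had to be above background. Since Areg passed the main filter only through its control arrays, it is not read against the share of lower probes. With each array left out, the differences were 1.05 to 1.38 for Ebi3, 1.73 to 2.28 for Fgl2, 1.38 to 2.86 for Tgfb3, 0.33 to 1.00 for Penk, 0.40 to 1.60 for Il10, 0.02 to 0.75 for Il12a and -1.23 to -0.96 for Areg. Array weights were 0.18 for cKO array 3 and 3.91 for control array 2. Over all tested probes, 55 passed the adjusted threshold, 172 with all arrays above background, 115 with normexp and quantile normalization, 106 with trend and robust fitting, 676 with array weights and 28 with quantile normalization or the authors' table. That number was 0 with normexp and the 75th percentile, no filter, the methods' t-test, the slide or the replicate block, and 0 or 1 with an array left out. Same-numbered arrays deviated together with correlations of -0.14, 0.01 and -0.19, so the numbers were not taken as pairs, and with the replicate block the adjusted p was 0.22 for Fgl2, 0.23 for Areg and 0.24 for Ebi3 at unchanged differences. Signals near the background limit Il12a and Areg.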
